A study of Mus musculus with 2 samples.

Results

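The miR-148/miR-152 family consists of Mir148a, Mir148b and Mir152, 3 of the 1973 genes measured by microRNA sequencing of the mouse embryonic intestine. The 3 genes were chosen by family membership, with their counts on the gene's own strand, as a share of all such counts in a library, already known from an earlier look at these data. Their levels and the calls made on those counts are therefore given as a description and support nothing further. The study holds a single group: intestine of B6NCrl embryos at 14.5 days of development, in 2 libraries labelled biological replicates 2 and 1. The labels speak of the intestine of a single pup, taken on different days for the 2 replicates, yet they also give the sex as male and female pooled. Collection day and replicate cannot be told apart, no second condition exists, and any spread between the libraries may be technical as well as biological.

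A microRNA guides the silencing complex to messenger RNAs that pair with its seed, the bases at positions 2 to 8, and those messages are then degraded or translated less. Members of this family are known as repressors of the maintenance DNA methyltransferase Dnmt1. miR-148a is also known as one of the most abundant microRNAs of adult liver, as a regulator of lipid uptake there, and as a factor in B cell development, while miR-152 is known for its reduction in several human tumours by promoter methylation.

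The mature 3p arms show why the 3 genes form a family, and they are printed with the seed in capitals (RefSeq, build GRCm38.p6, 5′ to 3′). They are cut from chr6:51269829-51269850 (minus strand), chr15:103285185-103285206 (plus strand) and chr11:96850439-96850459 (plus strand), in this order.
mmu-miR-148a-3p: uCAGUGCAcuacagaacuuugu
mmu-miR-148b-3p: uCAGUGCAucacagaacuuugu
mmu-miR-152-3p: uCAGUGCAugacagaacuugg
The seed was identical in all 3, and among the 1738 mature entries of the table no other had it. Counted from 1 at the 5′ end, miR-148b-3p differs from miR-148a-3p by C9U and U10C, directly after the seed. miR-152-3p differs from miR-148a-3p by C9U, U10G and U20G, and from miR-148b-3p by C10G and U20G.

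The 5p arms, which come from the other side of each hairpin, were less alike. With the seed again in capitals they read as follows.
mmu-miR-148a-5p: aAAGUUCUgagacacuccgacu
mmu-miR-148b-5p: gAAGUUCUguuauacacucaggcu
mmu-miR-152-5p: uAGGUUCUgugauacacuccgacu
miR-148a-5p and miR-148b-5p had the same seed and miR-152-5p another. Base by base from the 5′ end, 59.1% of positions were identical between miR-148a-5p and miR-148b-5p, against 90.9% between the 3p arms of the same genes. Despite its other seed, miR-152-5p was closest to miR-148b-5p, with 79.2% identical, against 54.5% with miR-148a-5p. The counts are given per gene, so the arms cannot be separated in these data.

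The hairpin is the unit over which reads were counted, and each is shown with its 3p arm in capitals.
Mir148a: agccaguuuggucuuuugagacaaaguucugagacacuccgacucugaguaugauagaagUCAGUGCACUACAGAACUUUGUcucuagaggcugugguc
Mir148b: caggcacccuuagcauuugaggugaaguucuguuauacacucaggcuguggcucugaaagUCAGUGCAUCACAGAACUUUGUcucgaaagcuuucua
Mir152: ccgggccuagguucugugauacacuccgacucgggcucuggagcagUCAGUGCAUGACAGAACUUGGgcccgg
Mir152 has the shortest hairpin, 73 bases against 99 for Mir148a and 97 for Mir148b, and the richest in G and C (61.6%, against 45.5% and 45.4%). The predicted minimum free energies of folding were -43.5 kcal/mol for Mir152, -41.0 kcal/mol for Mir148a and -30.9 kcal/mol for Mir148b. In these predicted folds 19 of the 21 bases of the 3p arm were paired in Mir152, 19 of 22 in Mir148a and 17 of 22 in Mir148b.

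Reads from the 3 genes can be told apart by sequence when few mismatches are allowed. Among the other hairpins of the RefSeq table, 1004 symbols, the closest place for each 3p arm was in another member, with 2 mismatches, and outside the family the closest had 6 or more. The longest stretch of identical bases that Mir148a shared with another of these hairpins was 15, with Mir148b. For Mir152 it was 12, shared with Mir148a. The rest of the genome was not searched. The number of mismatches allowed during alignment is not given in the sources used here, and the part of reads placed on the wrong member was not tested.

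The 3 genes lie on 3 chromosomes, and Mir148b and Mir152 each lie within a Copz gene (GRCm38, GENCODE release M21). Mir148a (ENSMUSG00000065505.1; chromosome 6, 51269812 to 51269910, minus strand) lies outside other annotated genes. Mir148b (ENSMUSG00000065560.1; chromosome 15, 103285125 to 103285221, plus strand) lies in an intron of Copz1, on the strand of that gene. Mir152 (ENSMUSG00000065515.1; chromosome 11, 96850393 to 96850465, plus strand) lies in an intron of Copz2, 523 bases after the start of the gene and on its strand. Copz1 and Copz2 are paralogues that encode the zeta subunit of the COPI coat, which covers vesicles travelling from the Golgi back to the endoplasmic reticulum.

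Further paralogues stand beside each member, picked out after the annotation had been read. Genes of the Nfe2 group of leucine zipper transcription factors lie near all 3, namely Nfe2l3 at 163 kb from Mir148a, Nfe2 at 26.7 kb from Mir148b and Nfe2l1 at 20.4 kb from Mir152. Genes of heterochromatin protein 1 lie near all 3 as well, with Cbx3 at 200.4 kb from Mir148a, Cbx5 at 45.3 kb from Mir148b and Cbx1 at 41.8 kb from Mir152. The Hnrnpa group instead links Mir148a with Mir148b, with Hnrnpa2b1 at 191 kb from Mir148a and Hnrnpa1 at 38.4 kb from Mir148b. Neither of these Hnrnpa genes lies on the chromosome of Mir152. The nearest detected microRNA gene was in each case one of a Hox cluster, though far away, namely Mir196b at 960171 bases from Mir148a, Mir615 at 270124 bases from Mir148b and Mir10a at 533119 bases from Mir152. The levels of these Hox microRNAs did not follow the order of the family. In replicates 2 and 1, Mir196b had 7205 and 9443 CPM, Mir615 had 1436 and 1607 CPM and Mir10a had 58872 and 65360 CPM.

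Each member had at least 872 counts in each library. Counts on the gene's strand summed to 3903472 in replicate 2 and 15090126 in replicate 1. Levels are these counts per 1000000 of the library's sum (CPM), and a count of 0 allows at most 0.769 CPM in replicate 2 against 0.199 CPM in replicate 1 (3 counts of the total). Intervals are 95% intervals and cover counting error only, since PCR copies were not told apart. The tissue's own markers were present: the smooth muscle genes Mir143 and Mir145a summed to 149642 and 171529 CPM in replicates 2 and 1, and the 4 intestinal epithelial genes (Mir192, Mir194-1, Mir194-2, Mir215) to 11362 and 8980 CPM. Of 1973 genes, 363 reached 10 counts in each of the libraries and are called detected. All 3 members were among them.

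Mir148a was the leading member in both libraries, Mir148b came next and Mir152 was lowest. Mir148a had 5031 counts or 1289 CPM in replicate 2 and 14106 counts or 935 CPM in replicate 1, a mean of 1112 ± 250.4 CPM (SD, n = 2). Mir148b had 1419 counts or 364 CPM in replicate 2 and 5208 counts or 345 CPM in replicate 1, a mean of 354 ± 13.0 CPM. Mir152 had 872 counts or 223 CPM in replicate 2 and 3167 counts or 210 CPM in replicate 1, a mean of 217 ± 9.56 CPM. The ranges of the 3 genes did not overlap, so the order was the same in both libraries. Among all 1973 genes, Mir148a ranked 93 in replicate 2 and 103 in replicate 1, Mir148b 146 and 144, and Mir152 161 and 162.

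The order also held per length of hairpin, where Mir148b and Mir152 came closer together. Per 100 bases of hairpin, Mir148a averaged 1123 ± 253 CPM, Mir148b 365 ± 13.4 CPM and Mir152 297 ± 13.1 CPM (SD, n = 2). A read of a mature microRNA covers that product whole, so the length of the hairpin need not scale the counts. Ligation and PCR also favour some small RNA sequences over others, and levels of different genes compare counts, not molecules.

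**Figure D1:**
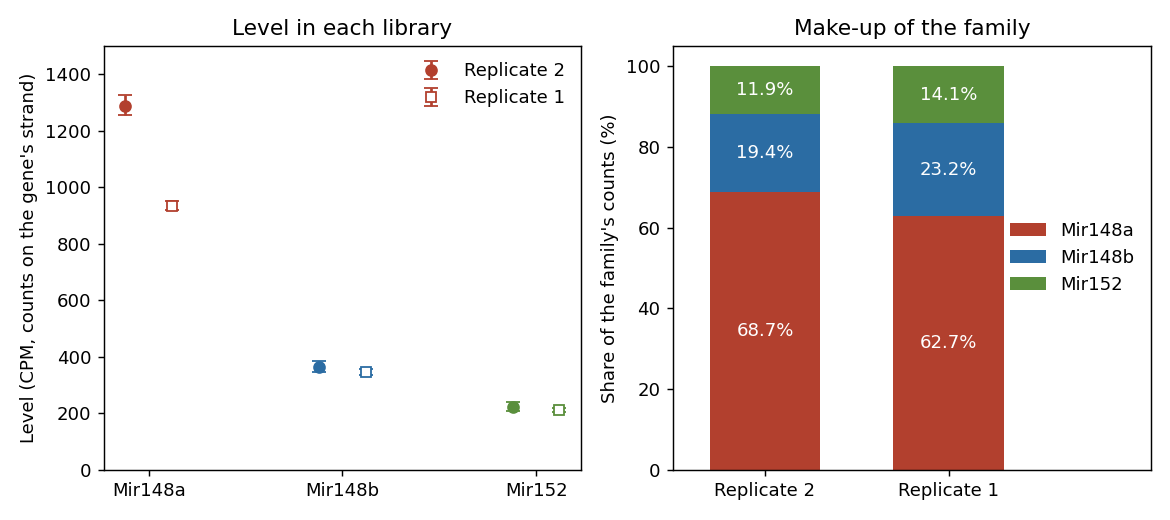
The left panel plots the level of each member in CPM in replicate 2 (filled circles) and replicate 1 (open squares), with 95% Wilson counting intervals; the right panel stacks the members as a percentage of the family's counts in each library. Mir148a is highest in both libraries and is the member whose libraries stand clearly apart, while Mir148b and Mir152 keep nearly the same level.

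The family as a whole took a small share of the counts. It reached 0.188% of all counts in replicate 2 (Wilson interval 0.183 to 0.192%) and 0.149% in replicate 1 (0.147 to 0.151%), a mean of 0.168 ± 0.0273% (SD, n = 2). Mir148a made up 68.7% of the family in replicate 2 (67.6 to 69.8%) and 62.7% in replicate 1 (62.1 to 63.4%). Mir148b made up 19.4% in replicate 2 and 23.2% in replicate 1, and Mir152 11.9% and 14.1%.

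The ratio of Mir148b to Mir152, the members within the Copz hosts, was nearly the same in both libraries, while the ratios that involve Mir148a were not. Mir148b exceeded Mir152 1.63-fold in replicate 2 (exact interval 1.49 to 1.77) and 1.64-fold in replicate 1 (1.57 to 1.72). The log2 change of this ratio, replicate 2 over replicate 1, was -0.02 with an interval of -0.15 to 0.12. Each of the 2 genes had a log2 difference between the libraries (0.07 and 0.09) near the median over all detected genes, 0.06. Any link of this ratio with the hosts was not tested. Mir148a exceeded Mir148b 3.55-fold in replicate 2 (3.34 to 3.76) and 2.71-fold in replicate 1 (2.62 to 2.80), a log2 change of 0.39 (0.29 to 0.49). It exceeded Mir152 5.77-fold in replicate 2 (5.37 to 6.21) and 4.45-fold in replicate 1 (4.29 to 4.63), a log2 change of 0.37 (0.26 to 0.49).

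Between the libraries, Mir148a was 1.38-fold higher in replicate 2 than in replicate 1, a log2 difference of 0.46 (exact interval 0.42 to 0.51). An exact binomial test, two-sided, set each gene's pair of counts against the library totals, and p-values were adjusted by Benjamini-Hochberg across all 363 detected genes. The test compares these 2 libraries and not conditions, takes reads as independent and leaves out the spread between animals, and for the members it uses the counts they were chosen with. Mir148b had a log2 difference of 0.07 (-0.01 to 0.16) and Mir152 one of 0.09 (-0.02 to 0.20). At an adjusted p of 0.05 Mir148a was called and Mir148b and Mir152 were not. Thus 1 of the 3 members was called, where 43.8% of all detected genes were called and 29.8% were called as higher in replicate 2, so the count of calls does not set the family apart. With all genes of at least 1 count tested the share called was 19.8%, and with at least 100 counts in both libraries, which all 3 members have, it was 60.8%. The share of calls that were higher depends on the scaling, with 108 of 159 by library totals and 68 of 148 by edgeR's scaling, and Mir148a was called as higher under both.

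Few genes at the level of Mir148a differed as much between the libraries. The median absolute log2 difference over all detected genes was 0.15, and 49 of the 363, Mir148a included, reached 0.46 or more. Among the 53 detected genes within 2-fold of its mean level, where counts are high, the median was 0.13 and 2 genes reached it. The other was Mir194-1 of the intestinal epithelial list, with 936 CPM in replicate 2, against 620 CPM in replicate 1. It gives the same mature microRNA as Mir194-2, as Mir7-1 does with Mir7-2 of the pancreatic and endocrine list, so the counts of these genes are uncertain. Among the 55 genes within 2-fold of Mir148b, 34 differed at least as much as it did, and among the 58 within 2-fold of Mir152, 30 did. The member itself is included in each of these numbers.

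**Figure D2:**
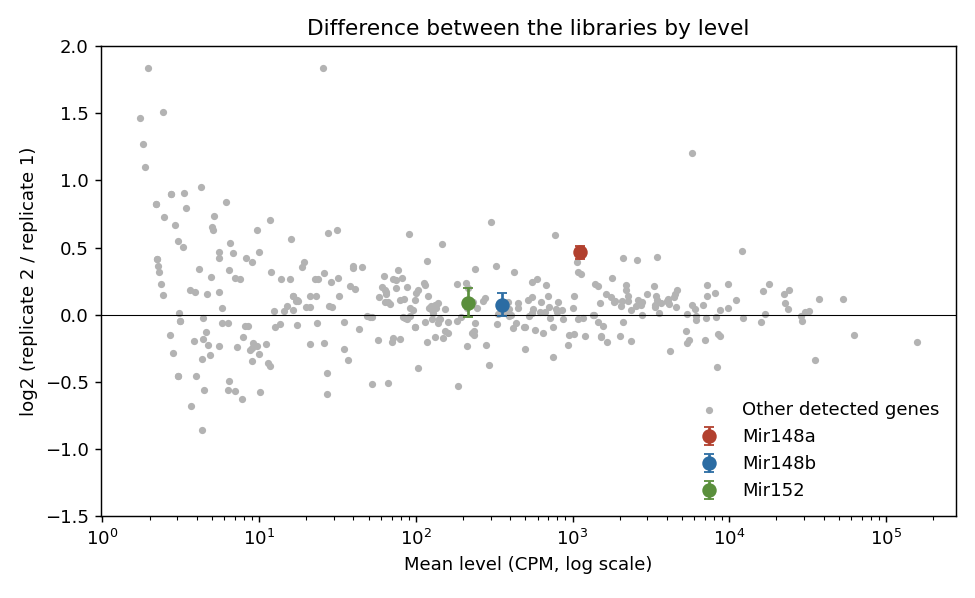
Each point is a detected gene, with its mean level in CPM on a log axis and the log2 of replicate 2 over replicate 1 on the vertical axis; coloured points with 95% exact counting intervals are the 3 members, and 1 gene lies outside the axis. Mir148a stands at 0.46, above most genes of its level, while Mir148b and Mir152 lie close to 0.

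Epithelial microRNAs were higher in replicate 2 as well, and their values stand beside that of Mir148a here. The intestinal epithelial list summed to 11362 CPM in replicate 2, against 8980 CPM in replicate 1, a log2 difference of 0.34, with all 4 of its genes called as higher (0.14 to 0.59), beside 29.8% of all detected genes. The 5 genes of the epithelial miR-200 family, which keeps cells epithelial, summed to 42892 and 35028 CPM, a log2 difference of 0.29, and all 5 were called as higher (0.17 to 0.47), beside the same 29.8%. Mir148a amounted to 0.113 of the intestinal epithelial sum in replicate 2 and 0.104 in replicate 1, a log2 change of 0.12 (0.07 to 0.17). Relative to the miR-200 sum its log2 change was 0.17 (0.12 to 0.22), and relative to the smooth muscle sum, which had a log2 difference of -0.20 (Mir143 -0.20, Mir145a 0.01), it was 0.66 (0.61 to 0.71). Relative to the intestinal epithelial sum, Mir148b and Mir152 had log2 changes of -0.26 (-0.35 to -0.18) and -0.25 (-0.36 to -0.14). Neither gene was itself lower in replicate 2, with log2 differences of 0.07 and 0.09 that were not called. They rose less than the sum did. In whole tissue, more cells of a type and more of the microRNA per cell cannot be told apart.

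Genes known from organs next to the intestine, and from endocrine cells, also differed. The liver gene Mir122 had 51.0 CPM in replicate 2, against 39.8 CPM in replicate 1, a log2 difference of 0.36 (0.12 to 0.59). The pancreatic and endocrine list, of which 6 of 7 genes were detected, summed to 8935 and 4174 CPM, a log2 difference of 1.10, and all 6 were called as higher (0.27 to 1.84), again beside 29.8% of all detected genes. Most of that sum was Mir375, at 8059 CPM in replicate 2 (3497 CPM in replicate 1), a microRNA of endocrine cells that the intestinal epithelium itself also makes. The pancreatic genes Mir216a, Mir216b and Mir217 were low, at 1.02, 3.07 and 7.94 CPM in replicate 2 and 0.464, 0.861 and 4.44 CPM in replicate 1. Mir802, known from liver, pancreas and duodenum, had 137 CPM in replicate 2, against 1.59 CPM in replicate 1. Mir148a changed by less than the pancreatic and endocrine sum, by -0.63 on the log2 scale relative to it (-0.68 to -0.58). Relative to Mir122, the log2 change of Mir148a was 0.11 (-0.13 to 0.34). That interval includes 0 and is wide, with only 199 counts of Mir122 in replicate 2 and 601 in replicate 1. No gene of these lists was at 0 in both libraries. Whether epithelium or neighbouring organs play a part in the Mir148a difference was not tested.

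The remaining lists differed to varying degrees. The log2 differences of the sums were 0.66 for the 3 erythroid genes and 0.31 for the 3 measured leukocyte genes (556.7 CPM in replicate 2 and 448 CPM in replicate 1). They were 0.21 for the 4 mesenchymal genes and 0.04 for endothelial Mir126a. Most of the erythroid sum was Mir451a (374 CPM in replicate 2 and 231 CPM in replicate 1). Of the erythroid genes 1 was called as higher, Mir451a, and of the leukocyte genes 2 were, beside 29.8% of all detected genes. The mesenchymal value was carried by Mir214 (0.22, called as higher), while Mir199b was called as lower (-0.09) and the median of the 4 genes was 0.09. Mir199a-1 and Mir199a-2 give the same mature microRNA, so their counts are uncertain, and so are this median and the weight of Mir214 in the sum. The log2 difference of the sum of the 4 measured striated muscle genes was -0.21 (-0.76 to 0.32), at 9.48 and 10.9 CPM. Only Mir206 of these was detected, and Mir133a-1 was at 0. Mir133a-1 and Mir133a-2 give the same mature microRNA, so this 0 does not show absence. Of all the lists, endothelium, with 1 gene, had the difference nearest to those of Mir148b and Mir152. The median over all detected genes, 0.06, was nearer still, so this nearness does not point to a cell type. Relative to Mir126a, Mir148b changed by 0.03 (-0.05 to 0.12) and Mir152 by 0.05 (-0.06 to 0.16) on the log2 scale.

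**Figure D3:**
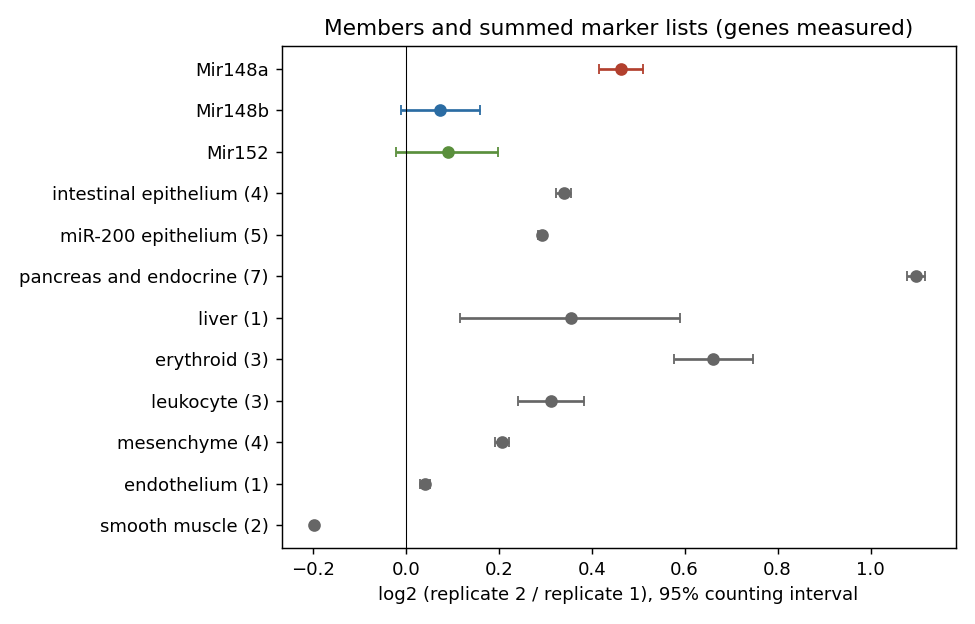
The horizontal axis is the log2 of replicate 2 over replicate 1, with 95% exact counting intervals, for the 3 members and for the summed counts of marker lists, the number of genes measured in brackets. Mir148a (0.46) lies among the lists that are higher in replicate 2, between liver (0.36, a list of 1 gene with a wide interval) and the erythroid sum (0.66). Mir148b and Mir152 lie near endothelium, a list of 1 gene, and near the median of all detected genes (0.06). That median, Mir802 (6.42) and striated muscle are not drawn.

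The genes most like each member were found by the distance of log2(CPM + 1) over the 2 libraries, which measures likeness of level and of difference at once. For Mir148a the nearest 3 were Mir205, Mir200a and Mirlet7f-2. Mir205, known from stratified epithelium, had 1210 CPM in replicate 2, against 923 CPM in replicate 1, and Mir200a of the miR-200 family had 1209 and 972 CPM. All 3 were higher in replicate 2, with log2 differences of 0.30 to 0.39. For Mir148b the nearest were Mir125b-2, Mir676 and Mir669o, with log2 differences of 0.01 to 0.05. For Mir152 they were Mir330, Mir328 and Mir450b, with 0.05 to 0.24. With 2 libraries of a single tissue these are neighbours in level, and nothing more can be read from them. Mirlet7f-2 and Mir125b-2 share their mature microRNA with a gene elsewhere, so their counts are uncertain.

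The miR-130/miR-301 family has a seed that overlaps that of the miR-148/miR-152 family, which makes it the closest family by seed among those compared. Its leading members are printed with the seed in capitals to show the shift (RefSeq, GRCm38.p6).
mmu-miR-130a-3p: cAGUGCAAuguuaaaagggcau
mmu-miR-130b-3p: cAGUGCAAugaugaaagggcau
mmu-miR-301a-3p: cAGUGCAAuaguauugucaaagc
The last 6 bases of the miR-148/miR-152 seed are the first 6 of this one, a shift by 1 base. The shifted family was far more abundant. Mir130a had 28578 CPM in replicate 2, against 28818 CPM in replicate 1, Mir130b 7043 and 7162 CPM, Mir301, which encodes miR-301a, 1935 and 1808 CPM, and Mir301b 137 and 130.02 CPM. Mir130c was at 0 in both libraries.

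The miR-148/miR-152 family summed to 1876 CPM in replicate 2 (1490 CPM in replicate 1), against 37693 CPM (37918 CPM in replicate 1) for the miR-130/miR-301 family. The miR-130/miR-301 sum was thus 22.6-fold the larger, and 31.3-fold per length of hairpin. The log2 ratio of the miR-148/miR-152 to the miR-130/miR-301 sum was -4.33 in replicate 2 and -4.67 in replicate 1, a gap of 0.34 between the libraries that is small beside the ratio. The largest member by count, Mir148a, stood below Mir301 in each library and above Mir301b.

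The miR-26 family, with its genes in introns of the Ctdsp phosphatase genes, also has 3 genes and paralogous hosts. Nearly all of its assigned counts fell on Mir26b. Mir26b had 32663 CPM in replicate 2, against 32023 CPM in replicate 1. Mir26a-2 had 61.0 and 55.7 CPM, and Mir26a-1 17.2 and 14.2 CPM. The leading member held 68.7% of the miR-148/miR-152 counts in replicate 2 and 62.7% in replicate 1, against 99.8% in both for Mir26b in the miR-26 family.
mmu-miR-26a-5p: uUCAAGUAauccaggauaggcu
mmu-miR-26b-5p: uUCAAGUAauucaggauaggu
Mir26a-1 and Mir26a-2 give the same miR-26a-5p, shown above, so its reads align to more than 1 place. Reads with several alignments, 26.6% of all reads in replicate 2 and 26.5% in replicate 1, were assigned to no gene. Reads of miR-26a-5p that fit both genes are thus missing from the counts of Mir26a-1 and Mir26a-2, which are uncertain. The 3 members of the miR-148/miR-152 family each have a 3p arm of their own. The share of Mir26b depends on this counting, so the evenness of the families cannot be compared.

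**Figure D4:**
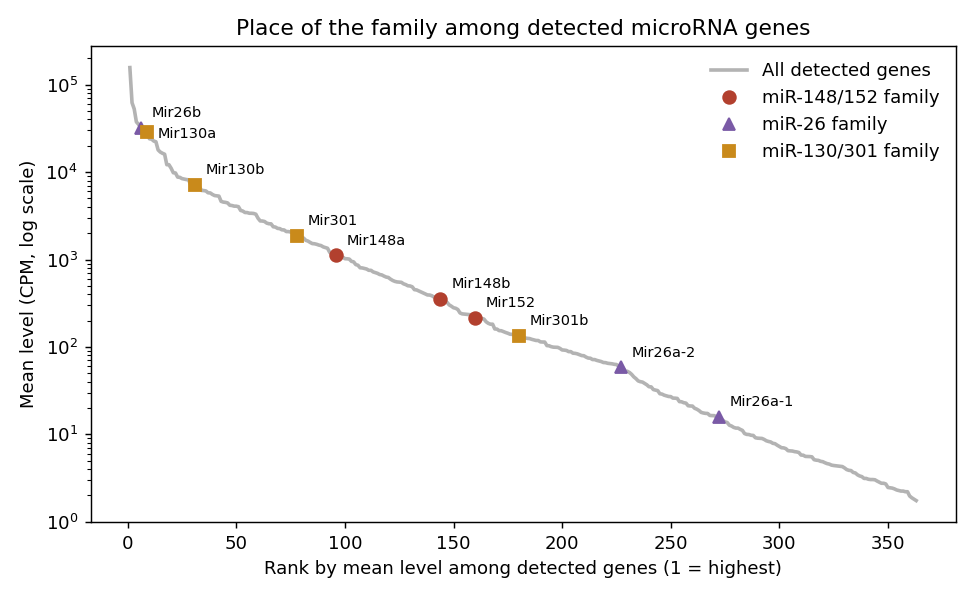
The grey line gives the mean level of all 363 detected genes in CPM (log axis) by rank, and the symbols mark the miR-148/miR-152, miR-26 and miR-130/miR-301 genes. The 3 members of the miR-148/miR-152 family lie within the middle of the range, below Mir301 and above Mir301b, whereas Mir26b and Mir130a lie near the top; Mir130c, at 0, is not drawn.

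In both comparison families the library difference was smaller than that of Mir148a. The miR-130/miR-301 sum had a log2 difference of -0.009 (-0.017 to -0.0003) and the miR-26 sum one of 0.03 (0.02 to 0.04), against 0.33 (0.29 to 0.37) for the miR-148/miR-152 sum. These intervals cover counting error for this pair of libraries only, so they do not show that the families differ. Most of the comparison sums was Mir130a and Mir26b. Among their less abundant genes the values were 0.27 (-0.15 to 0.67) for Mir26a-1, 0.13 for Mir26a-2, 0.10 for Mir301, 0.07 for Mir301b and -0.02 for Mir130b. Of the 4 detected miR-130/miR-301 genes 3 were called, 1 of them as higher in replicate 2, and of the 3 miR-26 genes 1 was called, Mir26b, beside the 43.8% of all detected genes. At such depth a very small difference passes the test, as that of Mir130a does (-0.01, adjusted p = 0.0313 by the exact test).

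Reads on the opposite strand were all but absent at the 3 genes. Mir152 had 0 such counts in replicate 2 and 1 in replicate 1, while Mir148a and Mir148b had 0 in both.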

How the data were processed

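The members, comparison families, marker lists and tests were chosen with earlier results of these data known. The 2 libraries hold small RNA of under 30 bases, per the labels. Each deposited table gives raw read counts per gene in 3 columns, read from the values as both strands, the sense strand (used here) and the antisense strand. Reads were aligned to mm10 and counted on GENCODE release M4, per the text files beside the tables. The aligner, its settings, trimming and counter are not given in the sources used here. Rows for unaligned reads (13.8% of reads in replicate 2 and 12.4% in replicate 1), several alignments and no gene (2.10% and 2.20%) stayed out of totals and tests.

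Symbols and positions came from GENCODE M21, which holds 1894 of the 1973 gene identifiers, and sequences from RefSeq, which matched all 3 members; no 3p entry of Mir301b was printed. Named genes were the members, the comparison families, the marker lists and the 3 detected genes nearest to each member. Mir142 and Mir1a-2 of the marker lists were not found by symbol. Exact binomial tests, Wilson and Clopper-Pearson intervals used scipy 1.17.1, and folds came from RNAfold 2.7.2. Intervals of changes in a ratio use the normal approximation to the log of counts. No test between conditions was possible with 1 group. Scaling by edgeR 4.0.16 and DESeq2 1.42.0, thinning, other filters, totals, lengths and strands, and each library alone were tried as alternatives.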

Additional observations from a re-analysis of the deposited data

How the results depend on the processing

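Levels depended on the total they were scaled to. Over all aligned reads, Mir148a averaged 722, Mir148b 230.2 and Mir152 141 CPM, and the family took 0.109%. With the most abundant gene, Mir143, left out of the total, Mir148b averaged 420.2 CPM, Mir152 257 CPM and the family 0.199%. Per length of hairpin, Mir152 averaged 297 CPM per 100 bases, the ratio of Mir148a to Mir152 was 3.77 and that of Mir148b to Mir152 was 1.23. Counting both strands moved no level or ratio by more than the SD. Of the 61 alternative values computed, 51 were labelled as unchanged and 10 as moved. Levels and ratios were judged by the SD, and differences by their side of the threshold. The number of genes called was judged by its fold change alone, whatever the number of genes tested. With 2 libraries, each alone always lies within the SD of their mean, so the single-library values could not move. The count of unchanged values is therefore no measure of robustness. From single libraries, the family's share ranged from 0.149% without replicate 2 to 0.188% without replicate 1. The log2 difference of Mir148a lay between 0.40 (edgeR scaling) and 0.50 (replicate 1 thinned to the depth of replicate 2) and passed the exact test throughout, while Mir148b (0.007 to 0.08) and Mir152 (0.02 to 0.09) did not pass under any setting. The exact test called 159 genes, 108 of them as higher in replicate 2, against 148 and 68 with edgeR scaling and 149 and 72 with DESeq2 size factors. Thinning gave 126 calls among 341 genes. No paired analysis was possible because the design holds 1 group. The precision of Mir148b and Mir152 is limited by replicate 2, which had 872 counts of Mir152.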
